A study of Mus musculus with 193 samples.

Results

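The genes described here are the secreted frizzled-related protein genes Sfrp1 and Sfrp2 and 8 genes of the canonical WNT pathway: Fzd7, Lrp5, Lrp6, Ctnnb1, Axin1, Apc, Gsk3b and Tcf7l2. They were chosen by name, with earlier results of the same cells known, and make up 10 of the 19557 genes in the deposited table. All 10 symbols had a row. The cells were 193 single cells from mouse testes, sorted for green fluorescence from Id4-eGFP, which reports on Id4, a gene used to mark spermatogonial stem cells. At postnatal day 3 (P3) there were 71 wild-type (WT) cells and 69 labelled as Rhox10 knockout (KO), and at postnatal day 7 (P7) there were 53 WT cells. Every group shared the reporter and the sort. The labels give no strain, no animal and no design of the knockout allele. Letters in the sample titles, which the labels do not explain, divide the groups into 7 sets: 16 cells (A) and 55 (B) in WT P3, 21 (A), 12 (B) and 36 (C) among the KO-labelled, and 12 (A) and 41 (B) in WT P7.

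Because no label ties cells to animals, each group counts as 1 sample and no difference below has a test or a p-value. Values are RPM, the share of a cell's reads that fell on the gene, scaled to a fixed total. The level of a gene in a set is the mean over its cells of log2(RPM + 1), and a group's level weighs its sets equally. A difference is between group levels, and beside it stands the range found when single sets are compared: 4 pairs of sets for P7 against P3 and 6 for KO-labelled against WT. A difference is called here when it reaches 1 in size and has the same sign in every pair. Both comparisons use the same WT P3 cells, so they are not independent of each other.

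Canonical WNT signalling turns on the stability of β-catenin, the product of Ctnnb1. Without a WNT ligand, a complex built on Axin1 and Apc holds β-catenin for phosphorylation by casein kinase and by Gsk3b, after which it is degraded. A WNT bound to a Frizzled receptor such as Fzd7 and a co-receptor, Lrp5 or Lrp6, halts that complex, and β-catenin then acts with TCF/LEF factors such as Tcf7l2 on target genes. The SFRP proteins are secreted, carry a domain like the ligand-binding part of Frizzled, and can bind WNT proteins outside the cell. RNA levels do not show where in the cell β-catenin is or whether the pathway is active.

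The labels were checked first. Rhox10 was not lower in every KO-labelled set: the 2 WT P3 sets had levels of 1.78 and 1.49, and KO-labelled sets A to C had 2.48, 2.62 and 0.83. The table gives counts per gene, so reads outside a deleted part would still be listed. Whether that or the labelling accounts for these levels was not tested, and the word labelled is kept throughout. Every one of the 193 cells had Ddx4 or Dazl, which mark germ cells, above 1 RPM. The summed level of 6 Sertoli cell markers was 3.79 and 3.06 in the WT P3 sets, 7.89, 1.60 and 1.66 in KO-labelled sets A, B and C, and 0 and 0.597 in the P7 sets. All 6 were at 0 in P7 set A. Myoid or stromal markers, 6 in number, also had their highest sum in KO-labelled set A, at 4.29 against 0.702 to 2.54 elsewhere. So did 4 endothelial markers, at 3.51 against 0.692 to 2.84. The sum of 3 leukocyte markers was highest in WT P3 set A, at 1.28. In KO-labelled set A the germ cell marker Zbtb16 was at a level of 1.06, against 2.77 to 5.46 in the other sets. Id4 itself was lower by 1.67 in the KO-labelled cells and by 1.32 at P7, both against WT P3. Recovered reads on genes ranged from 25424 to 1373776 per cell, with medians of 514921 in WT P3, 608841 in KO-labelled and 507865 in P7 cells.

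Sfrp2 stood apart among the 10 genes: it was the one gene called in either comparison. It lies on chr3:83766321-83774316 (GRCm38, plus strand). Sfrp2 RPM ran from 10.2 to 43.5 with a median of 17.6 in P7 set A, and from 0 to 68.6 with a median of 18.8 in P7 set B. In WT P3 it ran from 0 to 11.9 with a median of 0.785 in set A and from 0 to 28.2 with a median of 7.53 in set B. The P7 cells were thus high in both sets, though single cells of the 2 ages overlapped. The group level was 4.29 at P7 and 2.03 at P3, a difference of 2.27 (1.68 to 2.85 over the 4 pairs), and the mean was 22.8 RPM against 5.81, a ratio of 3.92. Sfrp2 was the 1 of 8 measured members called higher, where 6.55% of the 8255 genes with a level of at least 1 in either age were, and no member was called lower, where 3.2% of genes were.

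Cell by cell, Sfrp2 exceeded 1 RPM in 52 of 53 P7 cells (98.1%, exact 95% interval 89.9 to 99.95), in 49 of 71 WT P3 cells (69.01%, 56.9 to 79.5) and in 39 of 69 KO-labelled cells (56.5%, 44.04 to 68.4). These intervals cover counting error only. Cells were also thinned to 200000 reads on genes and set to a common total on genes. This left out 8, 5 and 0 cells of WT P3, KO-labelled P3 and P7. The shares were then 68.3% in WT P3, 60.9% in KO-labelled and 98.1% in P7 cells. In the plot of single cells, the Sfrp2 panel shows P3 cells spread from 0 upward and few P7 cells near 0. In the Sfrp1 panel 24 of the 53 P7 cells lie at 0.

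**Figure D1:**
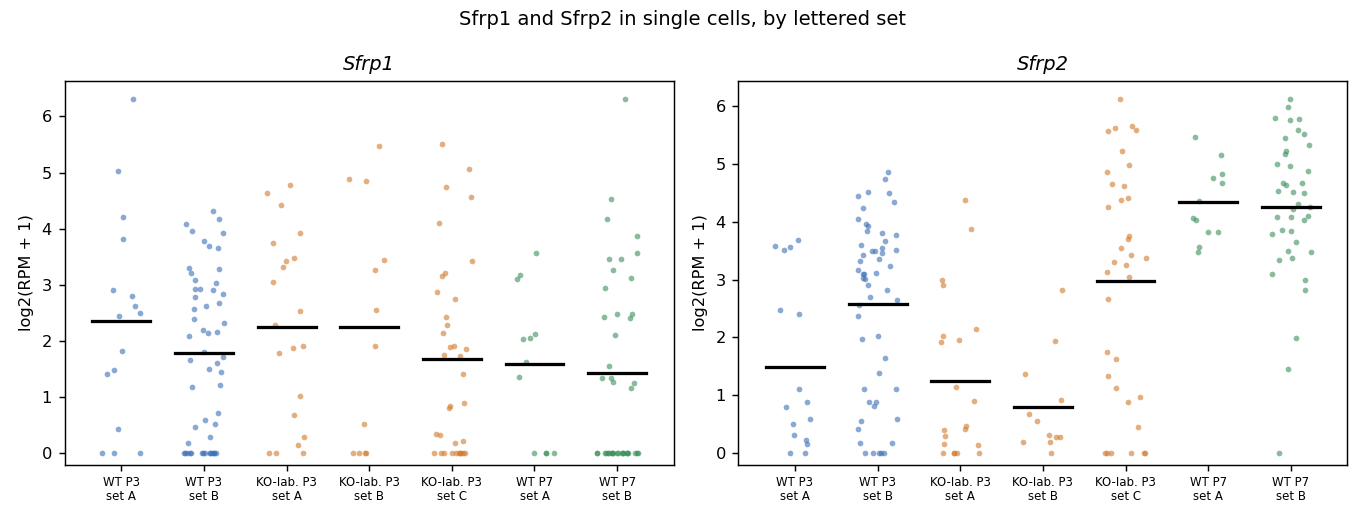
Sfrp1 (left) and Sfrp2 (right) in single cells, each point 1 cell on the log2(RPM + 1) scale, grouped by lettered set (KO-lab. stands for KO-labelled). Black bars are set means: for Sfrp2 they lie at 4.34 and 4.25 in the P7 sets and between 0.79 and 2.98 in the 5 P3 sets.

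Within P3, Sfrp2 varied more between sets than between the group labels. The WT sets had levels of 1.49 (A) and 2.57 (B), and the KO-labelled sets 1.24 (A), 0.79 (B) and 2.98 (C). The KO-labelled sets therefore lay on both sides of the WT sets, and the difference of -0.36 had a range over pairs from -1.78 to 1.49. Medians were 0.386, 0.351 and 9.08 RPM in the 3 KO-labelled sets, with highest cells at 19.7, 6.03 and 68.97 RPM. The gap of 2.19 between the lowest and the highest KO-labelled set was close in size to the difference between the ages. Without KO-labelled set C the difference from WT P3 was -1.01 and lower in all pairs. The Sertoli marker sums of these sets, 7.89, 1.60 and 1.66, stand above, and their part in the Sfrp2 levels was not tested.

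The promoter of Sfrp2 is shown because this gene carries the main difference. The first line below gives the 250 bases before its RefSeq start (chr3:83766071-83766320, plus strand, GRCm38.p6). The other lines give the bases before the start of Fzd7 (chr1:59481897-59482146) and before the second of the 2 listed starts of Tcf7l2 (chr19:55895071-55895320), both on the plus strand. The search used the TCF/LEF word CTTTGAA with its variants CTTTGAT and CTTTGTA and the further variant CTTTGTT, on both strands, and 14.8% of the 32851 promoter windows of this length hold at least 1 of them. Capitals in the Fzd7 and Tcf7l2 lines mark such a word. Capitals in the Sfrp2 line mark ATTTGCAT, the reverse complement of the octamer ATGCAAAT that POU factors are known to bind. The octamer was looked for after the sequence had been seen, and 1.6% of windows hold it on either strand. It shares no bases with a TCF/LEF word here.
Sfrp2: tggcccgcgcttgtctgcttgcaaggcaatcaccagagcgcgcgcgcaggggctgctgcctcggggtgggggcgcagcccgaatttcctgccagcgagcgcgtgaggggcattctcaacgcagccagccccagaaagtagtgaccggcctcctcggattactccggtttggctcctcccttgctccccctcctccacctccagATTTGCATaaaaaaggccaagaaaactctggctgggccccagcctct
Fzd7: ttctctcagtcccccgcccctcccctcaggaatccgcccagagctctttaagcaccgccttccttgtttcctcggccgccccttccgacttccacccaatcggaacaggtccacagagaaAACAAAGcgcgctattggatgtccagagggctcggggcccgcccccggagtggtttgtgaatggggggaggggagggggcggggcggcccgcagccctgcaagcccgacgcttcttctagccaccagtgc
Tcf7l2: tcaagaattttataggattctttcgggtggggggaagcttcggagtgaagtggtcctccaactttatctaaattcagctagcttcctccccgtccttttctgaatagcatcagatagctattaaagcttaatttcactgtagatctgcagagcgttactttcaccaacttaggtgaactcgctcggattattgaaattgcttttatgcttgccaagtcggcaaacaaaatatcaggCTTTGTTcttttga
The octamer began 47 bases before the start of Sfrp2, the word in Fzd7 130 bases before its start, and the word in Tcf7l2 14 bases before its second start. The 250 bases before Sfrp2, before the other start of Tcf7l2 and before the listed starts of Ctnnb1 and Gsk3b held none of the 4 words. These matches are a description of letters, and no binding was measured. Promoters of 5 of the 10 genes were found in the RefSeq table.

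Sfrp1, the other secreted modulator (chr8:23411502-23449632, plus strand), was lower at P7, by less than Sfrp2 was higher. Its median was 4.56 RPM in WT P3 set A and 2.50 in set B, and 2.60 and 1.25 RPM in P7 sets A and B. The highest cells reached 78.7 and 18.9 RPM at P3 and 10.9 and 78.2 RPM at P7, and 0 was the lowest value in every set, so the cells overlapped throughout. The difference was -0.57 (-0.94 to -0.19), and -0.27 without WT P3 set A. Its mean was 4.28 RPM at P7 and 7.67 at P3, but the ratio rests partly on the single cells at 78.7 and 78.2 RPM. Among the KO-labelled sets the levels were 2.25, 2.24 and 1.68, and the difference from WT P3 was -0.02 (-0.68 to 0.47). Sertoli markers moved with the difference between the ages, as given above, and their part in it was not tested. Without the cells that had 2 or more Sertoli markers above 1 RPM it was -0.35 (-0.46 to -0.24), and Sfrp2 under the same choice was higher at P7 by 2.27. This choice left out 5 of 16 and 10 of 55 cells in WT P3 sets A and B and 0 in each P7 set. In KO-labelled sets A, B and C it left out 11 of 21, 0 of 12 and 6 of 36.

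Sfrp1 and Sfrp2 together exceeded 1 RPM in 31 of 71 WT P3 cells, 25 of 69 KO-labelled cells and 29 of 53 P7 cells. Sfrp1 without Sfrp2 was seen in 16 WT P3 and 16 KO-labelled cells and in 0 of 53 P7 cells, where 1 cell at most could have shown it, since Sfrp2 was above 1 RPM in 52. Sfrp2 without Sfrp1 was seen in 18 WT P3, 14 KO-labelled and 23 P7 cells. Per length of annotated exons, Sfrp2 stood at 10.6 RPM per kb at P7 and 2.70 in WT P3, and Sfrp1 at 0.980 and 1.75. The gap between the 2 genes was thus wider at P7. In WT P3 set A their order was turned, with Sfrp1 at 2.49 and Sfrp2 at 1.66 RPM per kb. It was also turned in KO-labelled sets A (1.66 and 1.38) and B (2.41 and 0.515). It was not turned in KO-labelled set C (1.33 and 7.27) or WT P3 set B (1.02 and 3.74). Part of Sfrp2, 16.1% of its exonic bases, is also annotated to the antisense gene Gm26771, and the strand setting of the counting is not given. Gm26771 had no row of its own, so no level can be given for it.

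The receptor gene Fzd7 (chr1:59482424-59486955, plus strand) was low, and 101 of 193 cells were at 0. The median was 0 RPM in both P7 sets, and the WT P3 medians were 0 and 0.812 RPM. At least 1 cell was at 0 in every set, and the highest P7 cell had 6.57 RPM against 20.9 in WT P3. Fzd7 exceeded 1 RPM in 45.1% of WT P3 cells (32 of 71, 33.2 to 57.3), 37.7% of KO-labelled cells (26 of 69, 26.3 to 50.2) and 18.9% of P7 cells (10 of 53, 9.44 to 31.97). Thinned, the shares were 39.7%, 34.4% and 13.2%. The difference at P7 was -0.48 (-0.68 to -0.27), lower in all pairs, but both ages had a level under 1, so Fzd7 was left out of the counts for the ages. The KO-labelled sets were at 0.36 (A), 1.67 (B) and 1.23 (C), which lie on both sides of the WT levels of 0.71 and 1.08. In set B 9 of 12 cells were above 1 RPM and in set A 2 of 21.

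The co-receptor genes differed from each other in level. Lrp5 (chr19:3584828-3686564, minus strand) had a median of 0 RPM in 6 of the 7 sets and exceeded 1 RPM in 34 of 193 cells. It did not reach a level of 1 in any set, and its differences of 0.03 at P7 and -0.08 in the KO-labelled cells cannot be read at this depth. Lrp6 (chr6:134446476-134566965, minus strand) exceeded 1 RPM in 148 of 193 cells. Its set levels ran from 2.25 to 2.81 over the whole series, and the differences were -0.10 (-0.56 to 0.36) at P7 and -0.06 (-0.50 to 0.32) in the KO-labelled cells, with sets on both sides of each other. Per kb of exons Lrp6 was at 0.591, 0.697 and 0.733 RPM in WT P3, KO-labelled and P7 cells, and Lrp5 at 0.0528, 0.044 and 0.0699.

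**Figure D2:**
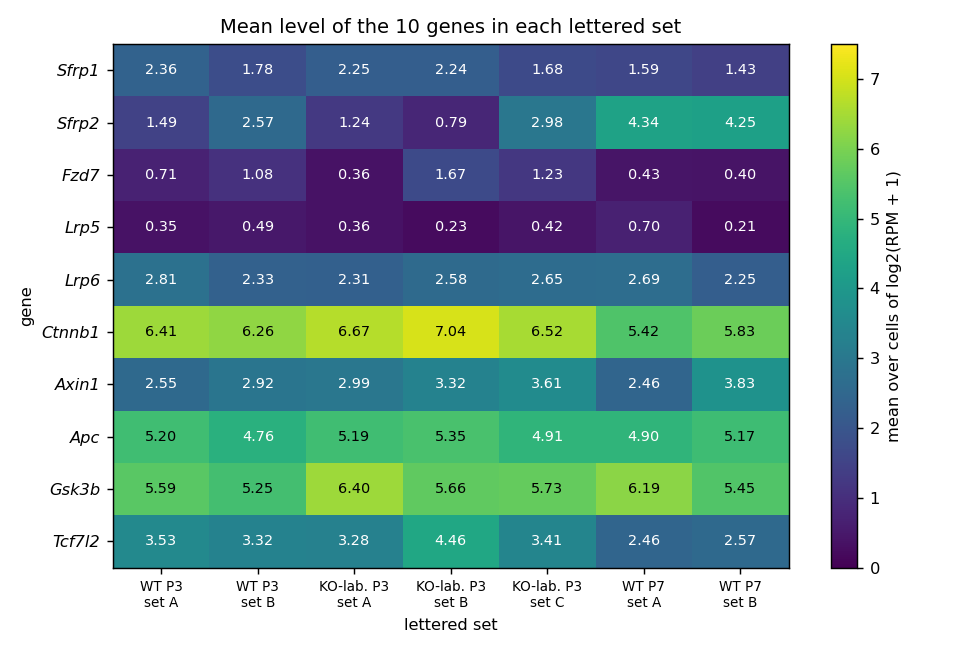
Mean level of each of the 10 genes in each lettered set, as colour and number, on the log2(RPM + 1) scale. Levels are not per length, so they are to be compared along a line, not between genes. Ctnnb1 runs from 5.42 to 7.04, Lrp5 is under 1 everywhere and Sfrp2 has its 2 highest values in the P7 sets.

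Ctnnb1 (chr9:120929216-120960507, plus strand) was above 1 RPM in all 193 cells and was the most abundant of the 10 genes per length, at 16.9, 22.96 and 11.7 RPM per kb of exons in WT P3, KO-labelled and P7 cells. Its RPM ran from 34.4 to 172 with a median of 93.5 in WT P3 set A and from 24.1 to 232 with a median of 70.3 in set B. At P7 it ran from 9.85 to 118 with a median of 43.4 in set A and from 6.82 to 167 with a median of 58.6 in set B. Both P7 sets were lower than both WT P3 sets, with overlapping cells. The difference was -0.71 (-0.99 to -0.43), from 87.5 to 60.8 RPM on average. In the KO-labelled sets the medians were 86.0, 154 and 92.5 RPM, and the difference from WT P3 was 0.41 (0.12 to 0.78). The exons overlap Ulk4, on the other strand, and Mir7090 over 15.1% of their bases. The set levels of Ulk4 ran from 0.38 to 1.41.

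In the degradation complex, Axin1 and Gsk3b differed between sets of the same group. Axin1 (chr17:26138688-26195811, plus strand), the scaffold, ran from 0 to 87.4 RPM in P7 set A with a median of 4.32 and from 0 to 86.8 in P7 set B with a median of 16.1. Its medians in WT P3 were 5.15 and 7.60 RPM. P7 set A lay below both P3 sets in level (2.46 against 2.55 and 2.92) and P7 set B above (3.83), so the difference of 0.41 had a range from -0.46 to 1.28. Without P7 set A it was 1.10 and without P7 set B -0.28, so a single set decides its direction.

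Gsk3b (chr16:38089001-38246084, plus strand), the kinase, was above 1 RPM in every cell. Its medians were 49.1 and 38.5 RPM in WT P3 sets A and B and 76.1 and 48.3 RPM in P7 sets A and B, and the difference between the ages was 0.40 (-0.14 to 0.94). Here P7 set A was the high one, at a level of 6.19 against 5.45 in P7 set B. Within P7 the 2 genes thus had opposite orders: set A was lower in Axin1 and higher in Gsk3b. Apc (chr18:34220924-34322552, plus strand), the other scaffold, was above 1 RPM in every cell and differed least of the 3, with set levels from 4.76 to 5.35. Its differences were 0.05 (-0.30 to 0.40) at P7 and 0.17 (-0.30 to 0.59) in the KO-labelled cells.

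In the KO-labelled cells Axin1 was higher by 0.57 (0.06 to 1.06) and Gsk3b by 0.50 (0.06 to 1.15). Axin1 medians were 11.3, 11.2 and 11.4 RPM in sets A, B and C, and Gsk3b medians 89.1, 52.2 and 50.5 RPM. The medians of Axin1 were alike, but its levels were 2.99, 3.32 and 3.61, a gap of 0.62 that is larger than its difference from WT P3. Gsk3b was highest in set A, the set with the high Sertoli marker sum and low Zbtb16. The part of these markers in the result was not tested. Without KO-labelled set A, the Gsk3b difference was 0.27 and that of Axin1 0.73.

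Ctnnb1, Axin1 and Gsk3b were the 3 of 9 measured members higher than WT P3 in all 6 pairs, and no member was lower in all pairs. Of the 8370 genes measured, 17.3% were higher in all pairs and 5.88% lower. No member was called in this comparison, where 1.08% of genes were called higher and 0.55% lower. The 3 differences depended on the scale. With each cell rescaled to its reads on genes, which moves the median of all genes by -0.19, they were 0.14 for Ctnnb1, 0.34 for Axin1 and 0.23 for Gsk3b, and none kept 1 sign in all pairs. Among all genes the shares in 1 direction then turned to 8.81% higher and 13.7% lower.

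Tcf7l2 (chr19:55741820-55933654, plus strand) encodes a TCF factor that binds DNA with β-catenin. It ran from 0 to 45.7 RPM with a median of 15.9 in WT P3 set A and from 0 to 42.8 with a median of 10.2 in set B. At P7 it ran from 0 to 26.1 and from 0 to 27.2 RPM, with medians of 5.66 and 5.70. Both P7 sets lay below the 5 P3 sets in level. The difference was -0.92 (-1.07 to -0.76), and the mean was 8.27 RPM at P7 against 15.9. In the KO-labelled cells the levels were 3.28, 4.46 and 3.41, so set B stood above the others. Its median there was 28.1 RPM. The difference from WT P3 was 0.29 (-0.25 to 1.13).

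**Figure D3:**
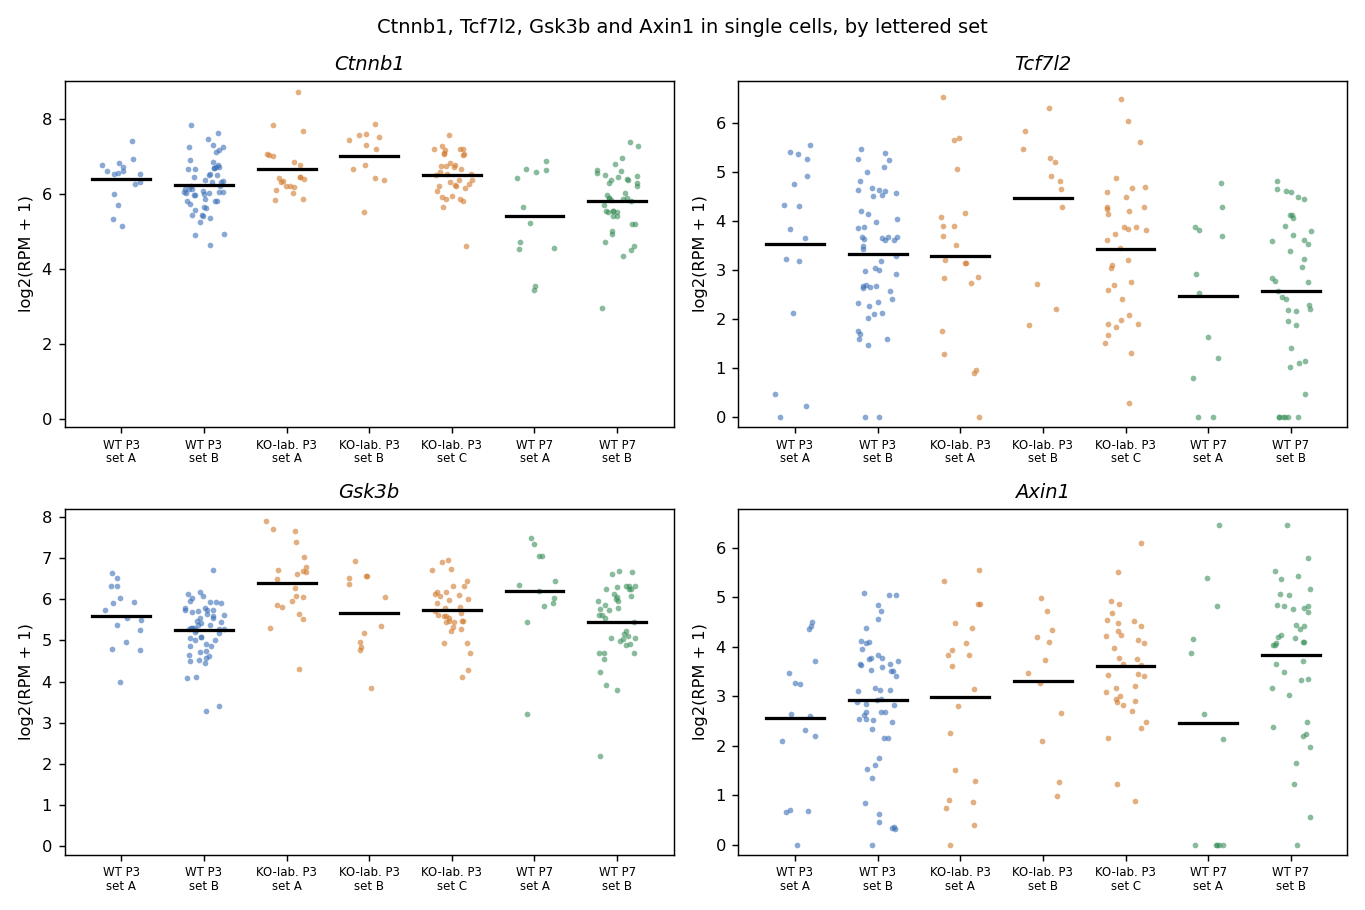
Ctnnb1, Tcf7l2, Gsk3b and Axin1 in single cells by lettered set (KO-lab. stands for KO-labelled), each point 1 cell and each black bar a set mean, on the log2(RPM + 1) scale. Ctnnb1 and Tcf7l2 have lower bars in both P7 sets than in any P3 set, and in P7 set A the Axin1 cells are split between 0 and values as high as 87.4 RPM.

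At P7 the members lower than P3 in all 4 pairs were Sfrp1, Ctnnb1 and Tcf7l2, 3 of 8 measured, where 17.8% of genes were, and Sfrp2 alone was higher in all pairs, where 35.7% of genes were. The median difference of the 8 was -0.03, against 0.15 over all genes. Rescaling to reads on genes moved the median of all genes by -0.29 and turned these shares to 18.97% higher and 33.4% lower. On that scale Sfrp2 was still called higher, by 1.90, and Ctnnb1 and Tcf7l2 were called lower, by 1.15 and 1.27. Gsk3b, higher by 0.40 on the RPM scale, was then at -0.04.

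**Figure D4:**
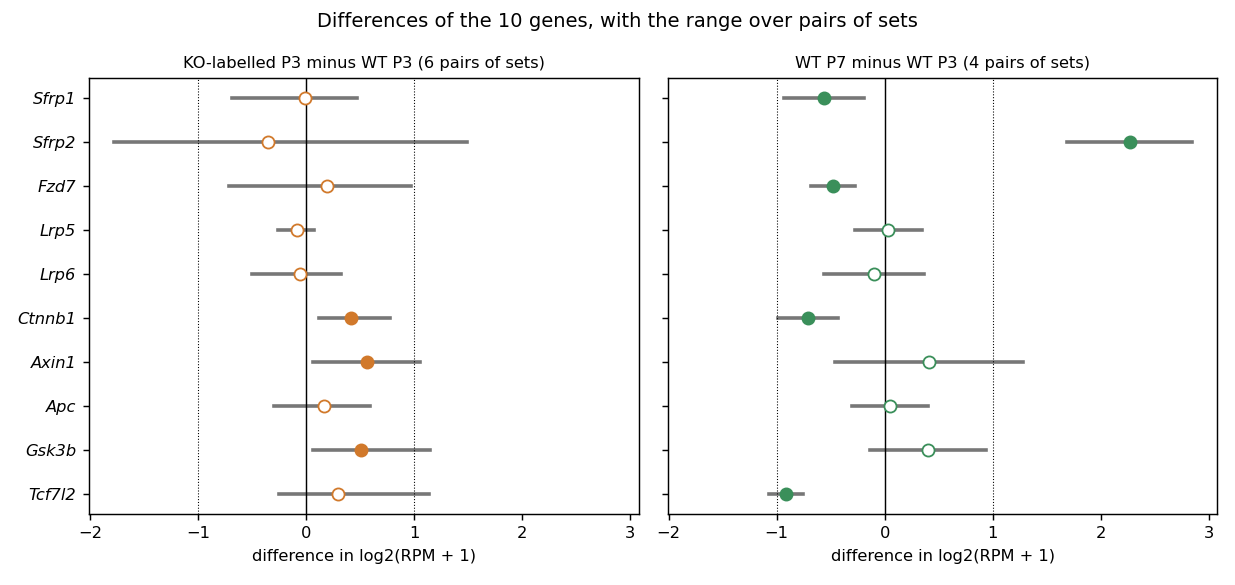
Difference of each of the 10 genes from WT P3 in KO-labelled P3 cells (left, 6 pairs of sets) and in WT P7 cells (right, 4 pairs), on the log2(RPM + 1) scale. Points are differences of group levels, grey lines the range over pairs of sets, not an error, filled points have the same sign in every pair, and dotted lines mark -1 and 1. Sfrp2 at P7, at 2.27, is the one filled point beyond a dotted line.

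A further 143 genes of the pathway were grouped in 8 lists by role, some genes standing in 2 lists, and are given by how many lay on 1 side of WT P3 in all pairs. Most extracellular genes were scarcely listed: 22 of 25 genes for ligands and their export, 13 of 13 further secreted inhibitors (among them Sfrp4, Sfrp5, Frzb, the Dkk genes and Wif1) and 15 of 21 further receptor genes stayed under a level of 1 in every group. Of the secreted inhibitors looked at here, Sfrp1 and Sfrp2 were thus the ones with a measurable level in these cells. At this depth a low level does not show absence.

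Between the ages, the measured genes of a list had median differences of 0.56 for the 3 ligands, 0.12 for the 6 receptors, 0.25 for the 22 transducers, 0.14 for the 14 nuclear factors and 0.05 for the 5 targets, against 0.15 over all genes. The counts below are to be read against the shares of all genes given above, 35.7% higher and 17.8% lower in all pairs, or 18.97% and 33.4% after rescaling to reads on genes. Among the ligands, Rspo2, a secreted enhancer of WNT signalling, was higher at P7 by 1.60 (1.54 to 1.66), at 7.26 RPM against 1.66. Rspo4, of the same family, was higher by 0.56 (0.43 to 0.69). Wnt3 was lower by 1.53 with a wide range (-2.88 to -0.19), since its WT P3 level was 2.91 in set A and 1.05 in set B, and without set A the difference was -0.60. Among 6 receptor genes, 2 were higher in all pairs and 0 lower, near the shares of all genes, and after rescaling to reads on genes 1 was higher and 1 lower. One was Fzd3, a Frizzled receptor, which was higher by 0.80 (0.74 to 0.85), at 48.7 RPM against 24.04. Fzd3 was at 0.41 after rescaling to reads on genes. The other, Znrf3, a ubiquitin ligase that removes Frizzled receptors, was higher by 0.32 but at -0.02 with cells rescaled to stably detected genes.

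Among 22 cytoplasmic transducers, 10 were higher and 4 lower at P7. With cells rescaled to reads on genes the counts were 6 and 8. Both pairs of counts lie near the shares of all genes. Dvl3, a Dishevelled protein that relays the signal from Frizzled, was higher by 1.31 (0.71 to 1.91), and the phosphatase subunit Ppp2r1a by 0.94. Rescaled to reads on genes, these 2 differences were 1.02 and 0.56. The cytoskeletal linker Macf1 was lower by 1.22 (-2.09 to -0.35) and Fbxw11, which marks β-catenin for degradation, by 0.93 (-1.23 to -0.64). Without P7 set A, Dvl3 was at 0.84 and Macf1 at -0.59, and Macf1 was at -0.99 without WT P3 set A, so neither stayed called. Usp34, a deubiquitinase and the transducer of highest RPM level, differed by 0.13, and by -0.32 after rescaling to reads on genes.

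The nuclear list had 14 measured genes, 6 higher and 4 lower at P7, and 3 and 5 after rescaling to reads on genes, where the list lies near the shares of all genes. Tle3, a Groucho corepressor, was higher by 1.54 (1.06 to 2.02), at 31.1 RPM against 9.52, and Tle4, of the same family, by 1.00 (0.50 to 1.49), just short of a call. Lef1, a partner of β-catenin like Tcf7l2, was lower by 0.83 (-1.15 to -0.52), and Ctnnbip1, an inhibitor of the binding of β-catenin to TCF factors, by 0.52 (-0.89 to -0.15). Hbp1, the list's gene of highest RPM level and a repressor that can act on WNT targets, was higher by 0.70. After rescaling to reads on genes Hbp1 was at 0.26. Not all genes of these families differed in the same direction: Tcf7, a further TCF factor, differed by 0.27 with mixed signs (-0.22 to 0.76) and by -0.10 after rescaling to reads on genes. Aes, a Groucho-family gene named here after its values were seen, was lower by 0.37 (-0.46 to -0.28).

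Of 18 genes commonly used as readouts of canonical signalling, 13 stayed under a level of 1 in every group, Axin2, Nkd1, Sp5, Notum and Lgr5 among them. Of the 5 that were measured, 1 was higher and 2 were lower at P7, and 0 and 2 after rescaling to reads on genes. These were Znrf3 and, on the lower side, Lef1, both given above, and T, which encodes brachyury and was lower by 1.10 (-1.39 to -0.82), at 0.4997 RPM against 4.71. It was at -0.96 without P7 set A and likewise without WT P3 set A, both short of a call. Ccnd1, a cyclin of the start of the cell cycle, differed by 0.05 (-0.55 to 0.65), and by -0.36 after rescaling to reads on genes.

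**Figure D5:**
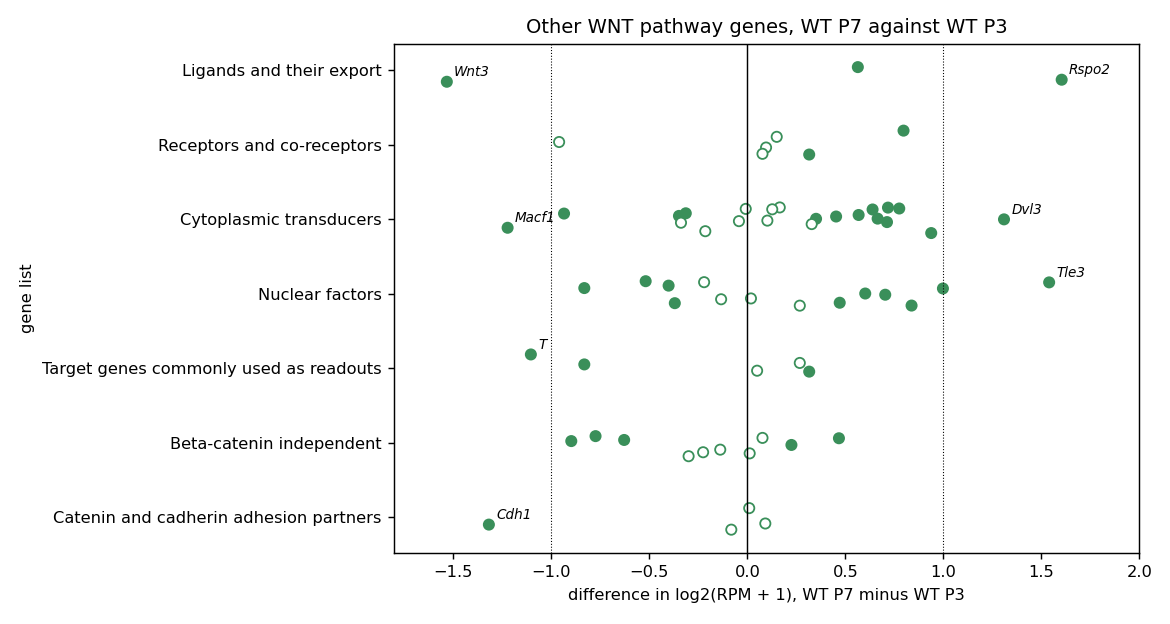
Difference between WT P7 and WT P3 for the measured genes of 7 pathway lists (the secreted inhibitors had none), on the log2(RPM + 1) scale. Each point is 1 gene, filled where the sign is the same in all 4 pairs of sets, and genes past the dotted lines at -1 and 1 with 1 sign are named. Rspo2, at 1.60, and Wnt3, at -1.53, lie farthest out.

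In the KO-labelled cells, where a gene had to keep its sign in 6 pairs in place of 4, the list medians were 0.00 for the 2 measured ligands, -0.09 for the receptors, 0.20 for the transducers, 0.17 for the nuclear factors and 0.09 for the targets, against 0.13 over all genes. The shares of all genes were 17.3% higher and 5.88% lower in all pairs, or 8.81% and 13.7% after rescaling to reads on genes. Fzd3 was called lower, by 1.18 (-1.74 to -0.55), its 3 sets being at 3.55, 2.45 and 2.91 while WT P3 was at 4.10 and 4.19. Without KO-labelled set B it was at -0.91, short of a call. It was the 1 of 6 measured receptor genes called in this comparison, and no measured gene of the other lists was called. Of all 8370 genes measured, 1.08% were called higher and 0.55% lower. Ptk7, a receptor-like protein, was lower by 0.31. Of 21 transducers 4 were higher and 1 lower, with Csnk1d, a casein kinase, higher by 0.64 (0.36 to 1.13), Dvl1 by 0.48 (0.12 to 1.07) and Tnks2 lower by 0.20. This count is near the share of all genes, and rescaled to reads on genes it was 2 and 1 with a median of 0.00. Of 14 nuclear genes 4 were higher and 1 lower, with Ctnnbip1 higher by 0.90 (0.12 to 1.53), the corepressor gene Tle1 by 0.61 (0.06 to 1.14) and Cby1 lower by 0.27. Rescaled to reads on genes, 0 nuclear genes were higher and 1 was lower, with a median of -0.03, and rescaled to stably detected genes 1 and 1. T was lower by 0.84 (-1.37 to -0.49), with 0 higher and 1 lower of 5 target genes. Without KO-labelled set A, the set with the high Sertoli marker sum, 14 of 21 transducers were higher and 1 lower, and of all genes 39.5% were higher and 8.64% lower.

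Across the 193 cells the members shared little of their variation with each other. The largest correlation between 2 of them was 0.34, between Ctnnb1 and Tcf7l2, and 0.24 after each set's mean was removed. The lowest was -0.25, between Sfrp2 and Ctnnb1, and 0.00 after centring, so it lay between sets and not within them. Of 5423 genes searched, those most like Sfrp2 were Usmg5, Gpx4 and Cct5, each at 0.41, which dropped to 0.08, 0.01 and 0.03 after centring. For Sfrp1 the most alike was Serf1, at 0.36 and 0.34 after centring, for Tcf7l2 Pard3, at 0.39 and 0.29, and for Axin1 Wdr18, at 0.37 and 0.31. These coefficients describe sparse counts, the cells of a set share their handling, and all values of a cell share its depth.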

How the data were processed

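Single cells sorted for Id4-eGFP were profiled on a Fluidigm C1 chip with SMARTer cDNA synthesis, ERCC spike-in RNA and Nextera XT libraries, per the labels' protocols. STAR 2.3.0 and HTSeq 0.6.1 appear in the submitters' processing notes, with the build mm10 (GRCm38). The annotation, the strand setting of the counting and the handling of multiply aligned reads are not given in the sources used. The deposited values are named as TPM but are RPM: in each cell they were whole multiples of 1 step shared by all genes, within 0.0015 RPM for 100% of values, so no gene length enters. The rows of the table sum to 8.13 to 23.01% of the total to which RPM refers. This share was 8.31 to 18.8% in WT P3 cells, 8.13 to 21.7% in KO-labelled cells and 13.9 to 23.01% in P7 cells. A single 193-column table of 19642 rows was used, without its 84 ERCC rows and Rn45s. The plan had named no unit for the values, and its log-scale measures were applied to RPM.

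Levels are means of log2(RPM + 1) per lettered set, with a pseudocount of 1. Each group is 1 sample, so no test was run, the count test on recovered reads included. Genes needed a level of at least 1 in either group to be counted. Named genes are the 10 members, Rhox10 and Id4, in each list up to 2 highest and 2 lowest genes with 1 sign in all pairs and the most abundant gene, and the genes most correlated with each member. The members and the gene lists were chosen with earlier results of these data known. Stably detected genes are those with any read in at least 90% of cells. Gene positions and exonic lengths come from GENCODE (GRCm38), promoters from RefSeq. The computation of levels and calls was tested on simulated data. Python 3.11.15, pandas 2.3.3, numpy 2.4.6, scipy 1.17.1 and matplotlib 3.10.9 were used.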

Additional observations from a re-analysis of the deposited data

How the results depend on the processing

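Each result was recomputed with pseudocounts of 0.1 and 10, cells weighted equally, rescaling to reads on genes or to stably detected genes, the log2 of the mean RPM, thinning to 200000 reads on genes, without cells with 2 or more Sertoli markers, with other floors, and without each lettered set. Thinned cells were also set to a common total on genes, so thinning is not independent of rescaling to reads on genes. Thinning moved the median of all genes by -0.30 at P7 and -0.21 in KO-labelled cells, against -0.29 and -0.19 with that rescaling. No called difference changed sign. Sfrp2 at P7 was higher under every one of these, by 3.09 with a pseudocount of 0.1 and 1.03 with one of 10. The count of members called lower at P7 was 0, and 2 with a pseudocount of 0.1, with either rescaling and with thinning. It was 0 to 1 when 1 set was left out, with Tcf7l2 the 1 without WT P3 set B. The count called higher was 1 to 2 without 1 set. Members higher at P7 in all pairs numbered 1, and 2 with a pseudocount of 10 or the log2 of the mean RPM, and 1 to 3 without 1 set. Those lower numbered 3, 5 with rescaling to reads on genes and with thinning, and 3 to 5 without 1 set. In KO-labelled cells, 3 members were higher in all pairs, but 0 with rescaling to reads on genes and with thinning, 1 with rescaling to stably detected genes, 2 with a pseudocount of 0.1, where Axin1 had mixed signs, and 3 to 4 without 1 set. Those lower numbered 0, 1 with thinning and 0 to 2 without 1 set. The count called lower was 0 to 1 without 1 set. The cause of these shifts was not tested. No paired analysis was possible because the labels name no animal that links cells or sets across groups. The numbers in the titles only count cells. Low reads limit Lrp5 and Fzd7 most.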

Other observations

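The 25 genes of WNT signalling that does not pass through β-catenin were a further list, and 10 of them were measured between the ages. At P7, 2 were higher in all pairs and 3 lower, with a median difference of -0.18 against 0.15 over all genes, of which 35.7% were higher and 17.8% lower. With cells rescaled to reads on genes 0 were higher and 7 lower, where the shares of all genes were 18.97% and 33.4%. Prickle2, of the planar cell polarity pathway, was lower by 0.90 (-1.13 to -0.67) and Daam1, a formin that acts downstream of Dishevelled, by 0.77 (-1.08 to -0.47). Prickle1, a relative of Prickle2, was higher by 0.47 (0.26 to 0.67). The GTPase gene Rhoa was higher by 0.22, but at -0.20 after that rescaling. In the KO-labelled cells 1 of 11 was higher in all pairs, Rac1 by 0.27 (0.06 to 0.52), and 1 lower, Nfatc2 by 0.65 (-1.23 to -0.15), with a median of 0.24 against 0.13 over all genes, of which 17.3% were higher and 5.88% lower. Rescaled to reads on genes, Rac1 was at 0.06, and with either rescaling 0 of the 11 were higher in all pairs.

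β-catenin also joins cadherins to the actin skeleton. Of 9 genes for its adhesion partners 4 were measured, and Cdh1, which encodes E-cadherin, was the 1 of them that was lower at P7 in all pairs, by 1.32 (-1.95 to -0.69), at 11.2 RPM against 18.7. Its levels were 3.23 and 3.56 in the WT P3 sets and 1.61 and 2.54 in the P7 sets, and without P7 set A the difference was -0.85. Ctnna1, which encodes the α-catenin that binds β-catenin, differed by 0.09 (-0.17 to 0.36), and by -0.34 after rescaling to reads on genes. The list's median difference was -0.04. With either rescaling and with thinning to 200000 reads on genes, 3 of the 4 were lower in all pairs, where 17.8% of all genes were lower on the RPM scale and 33.4% after rescaling to reads on genes. In the KO-labelled cells 0 of the 4 lay on 1 side of WT P3 in all pairs on the RPM scale, and 1 was lower with either rescaling. The median on the RPM scale was 0.00, and Ctnna1 was at 3.69 in set A against 5.81 and 5.76 in sets B and C.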
